A study of Rattus with 108 samples.

Results

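The 4 genes described here are Il1b (ENSRNOG00000004649), Il6 (ENSRNOG00000010278), Socs3 (ENSRNOG00000002946) and Il10 (ENSRNOG00000004647), chosen by their identifiers from the 32623 genes of the deposited rat count tables. They were followed in RNA-seq libraries of incised skin, of muscle and of dorsal root ganglion (DRG), where the cell bodies of sensory neurons lie, from rats with 1 of 2 operations. In skin/muscle incision and retraction (SMIR), the study's model of chronic postsurgical pain, harvests were made at 0 day and then 6 hours, 2 days, 10 days and 32 days after surgery. In lateral paw incision (LPI), its model of acute postsurgical pain, they were made at 0 day and then 6 hours, 2 days and 10 days after surgery. Each of the 27 combinations of model, tissue and time held 4 libraries, 108 in all, and 0 day was the baseline of its own model and tissue. Animals were passed as models by von Frey testing, per the series' design text; strain, sex and age are not given in the sources used here.

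Il1b encodes interleukin-1β, a pro-inflammatory cytokine made mainly by activated myeloid cells and stored as a precursor until an inflammasome cleaves it. Il6 encodes interleukin-6, which signals through the gp130 receptor subunit, JAK kinases and the transcription factor STAT3. Socs3 is a target gene of STAT3 whose product binds gp130 and JAK and shuts this signal down, so its transcript is often read as a sign of recent gp130 signalling. Il10 encodes interleukin-10, an anti-inflammatory cytokine that also acts through STAT3 and restrains macrophages. In incised tissue these cytokines are known from the early inflammatory phase of wound healing, and interleukin-1β and interleukin-6 are known to sensitise nociceptors.

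Library totals ran from 19080096 to 41654479 counts. The tissue labels were checked with genes enriched in 1 tissue at 0 day in both models (483 skin, 176 muscle and 899 DRG genes). The library labelled SMIR DRG 0 day, rat 4, went against its label: muscle-enriched genes took 14.9% of its counts and DRG-enriched genes 3.48%, against 18.2% to 20.9% for DRG-enriched genes in the other 3 libraries of its group. In LPI muscle, skin-enriched genes took over 1% of the counts in 5 libraries, 3 of them at 2 days (4.26%, 6.03% and 5.87%), 1 at 6 hours (4.40%) and 1 at 10 days (5.02%). In LPI skin itself these genes took 20.8% to 23.0% at 6 hours, 23.8% to 26.9% at 2 days and 17.1% to 19.3% at 10 days. Muscle-enriched genes took only 0.175% in LPI muscle at 0 day, rat 1, against 5.87% to 16.2% in the other 3 libraries of that group, and at most 0.685% in all 4 LPI muscle libraries at 2 days. The 95% Wilson intervals of these shares were at most 0.019 percentage points to either side and cover counting error only. Some results that rest on these libraries are also given without them, and the others only with them. In bulk tissue, a change in the number of cells that make a transcript and a change in RNA per cell cannot be told apart.

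Levels are given as CPM, counts scaled to the library total, with the SD over 4 libraries, and levels of different genes are compared only as the deposited FPKM, which divides by transcript length. A gene was called changed where edgeR's quasi-likelihood test gave a Benjamini-Hochberg adjusted p under 0.05 over all genes tested in that comparison, and "rose" and "fell" are used only of such calls. Each test weighed a change against the spread between libraries of the same group, estimated over all groups of its fit.

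**Figure D1:**
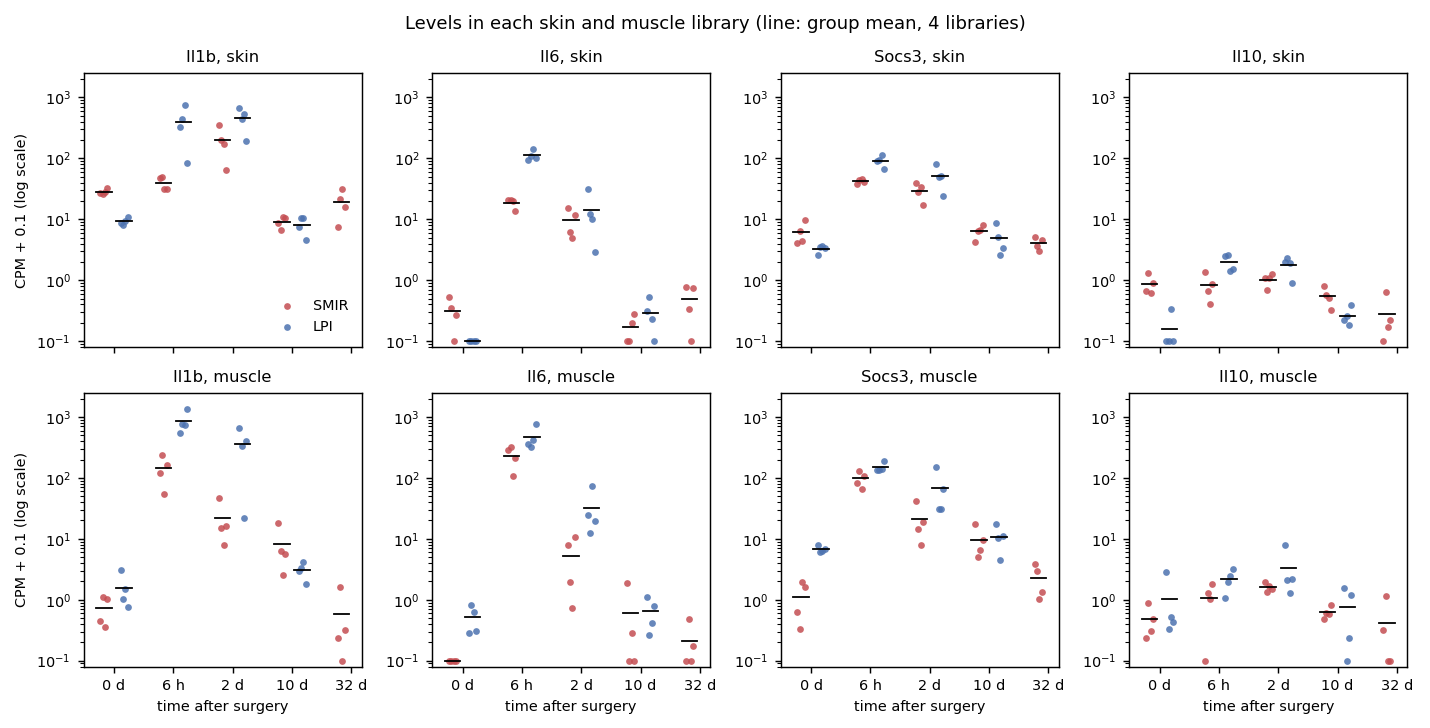
CPM + 0.1 on a log scale of Il1b, Il6, Socs3 and Il10 in each skin library (top) and muscle library (bottom) by time after surgery, SMIR in red and LPI in blue, with a line at the mean of 4 libraries. In both tissues and models the means of Il6 and Socs3 stood highest at 6 hours, and in skin that of Il1b stood highest at 2 days.

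In paw skin after LPI, all 4 genes rose within 6 hours, were still up at 2 days and had no call left at 10 days. At 6 hours all 4 were called higher, where 27.2% of the 16077 genes tested were, and at 2 days again all 4, where 21.8% were. At 10 days 0 of the 4 were called, against 0.578% of all genes in either direction. The largest fold was that of Il6, which had no count in any library at 0 day.

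Il1b had 8.68, 7.97, 9.29 and 10.7 CPM in LPI skin at 0 day, 331, 450, 745 and 82.4 CPM at 6 hours, 676, 440, 541 and 195 CPM at 2 days, and 7.33, 10.2, 10.2 and 4.55 CPM at 10 days. Every library at 6 hours and 2 days lay above all of those at 0 day, although the 6-hour libraries spread over a wide range with rat 5 lowest, and the 10-day libraries overlapped the baseline. The mean was 402 ± 275 CPM at 6 hours, against 9.17 ± 1.18 CPM at 0 day (SD, n = 4 each), a log2 change of 5.66 (SE 0.616, adjusted p = 4.71e-06). At 2 days it was 463 ± 203 CPM, a log2 change of 5.77 from 0 day (SE 0.619, adjusted p = 9.02e-06). The change between 6 hours and 2 days was not called, with a log2 difference of 0.10 (SE 0.498, adjusted p = 0.89).

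Il6 was at 0 counts in all 4 LPI skin libraries at 0 day, which allows up to 0.0311 CPM over the group. It had 94.5, 111, 141 and 102 CPM at 6 hours, 30.9, 12.3, 10.2 and 2.78 CPM at 2 days, and 0.208, 0.425, 0.127 and 0 CPM at 10 days. The 6-hour libraries lay close together, including rat 5, in which Il1b was lowest, and no 6-hour library overlapped the 2-day ones. At 6 hours Il6 was at least 3602-fold higher than at 0 day (adjusted p = 4.71e-06) and at 2 days at least 452-fold higher (adjusted p = 9.13e-05). At 2 days it was lower than at 6 hours, with a log2 change of -3.09 (SE 0.587, adjusted p = 0.00166). That decline was called for Il6 alone among the 4 genes, where 20.6% of all genes were called lower. Without rat 1 of 2 days it was -3.87.

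Socs3 had 2.48, 3.47, 3.51 and 3.30 CPM in LPI skin at 0 day, 91.8, 94.7, 112 and 66.5 CPM at 6 hours, 80.3, 48.6, 50.7 and 24.3 CPM at 2 days, and 8.63, 5.10, 2.50 and 3.32 CPM at 10 days. All libraries of 6 hours and 2 days lay above every baseline library. The log2 change was 5.05 at 6 hours (SE 0.445, adjusted p = 5.42e-07) and 4.11 at 2 days (SE 0.43, adjusted p = 5.68e-06). The lower level at 2 days than at 6 hours stood just outside the threshold, with a log2 change of -0.94 (SE 0.367, adjusted p = 0.0518). It was called without rat 1 of 2 days (-1.27, adjusted p = 0.0152) and without rat 5 of 6 hours (-1.07, adjusted p = 0.0416).

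Il10 was the least abundant of the 4. At 0 day in LPI skin it had 6 counts in rat 3 (0.242 CPM) and none in the other 3 libraries. It had 2.43, 2.49, 1.33 and 1.41 CPM at 6 hours, 1.91, 2.23, 1.78 and 0.788 CPM at 2 days, and 0.125, 0.155, 0.0847 and 0.285 CPM at 10 days. The early groups did not overlap the baseline, and the 10-day group did. The fitted log2 change was 5.08 at 6 hours (SE 0.801, adjusted p = 5.73e-05) and 4.78 at 2 days (SE 0.801, adjusted p = 0.000174), and both sizes rest on the few counts of rat 3 at 0 day; without that library the baseline is at 0 and the calls stayed (adjusted p = 7.27e-06 and 2.33e-05). The 10-day change was not called (adjusted p = 0.518) and was called without that library (adjusted p = 0.0472).

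From 2 to 10 days all 4 genes fell in LPI skin, where 21.3% of all genes were called lower. Between these times the log2 change was -6.13 for Il1b (SE 0.629, adjusted p = 6.87e-06), -6.51 for Il6 (SE 0.865, adjusted p = 0.00015), -3.63 for Socs3 (SE 0.415, adjusted p = 1.29e-05) and -3.56 for Il10 (SE 0.696, adjusted p = 0.00069). The Il6 value was -5.73 without rat 1 of 2 days and -7.28 without rat 5 of 10 days. When a trend with gene length was added to the fit, the falls of Il1b, Il6 and Socs3 were -5.25, -4.63 and -2.37 and stayed called, and that of Il10 was not called (-3.79, adjusted p = 0.0571). This trend ran from -0.0967 to -0.0351 in the 2-day libraries and from -0.0337 to 0.137 in those of 10 days. As these ranges did not overlap, that fit could hardly tell trend from time.

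In SMIR skin the response was smaller, and Il1b and Il10 stood apart from Il6 and Socs3. At 6 hours only Il6 and Socs3 rose, 2 of 4 genes where 30.6% of the 17317 genes tested were called higher. At 2 days Il1b, Il6 and Socs3 rose, 3 of 4 where 28% were. At 10 days Il1b was called lower than at 0 day, where 12.9% of genes were, and at 32 days 0 of the 4 were called, where 3.56% were called in either direction. Il10 was not called at any time.

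Il1b had 27.3, 25.7, 28.5 and 32.1 CPM in SMIR skin at 0 day, 47.0, 48.7, 31.2 and 31.0 CPM at 6 hours, 351, 198, 175 and 63.4 CPM at 2 days, 8.65, 6.50, 10.8 and 10.4 CPM at 10 days, and 7.38, 21.7, 30.9 and 15.5 CPM at 32 days. At 6 hours its libraries overlapped the baseline and the change was not called (adjusted p = 0.231). At 2 days every library lay above the baseline and Il1b rose (log2 change 3.00, SE 0.453, adjusted p = 4.19e-05). It was also higher at 2 days than at 6 hours (log2 change 2.40, SE 0.442, adjusted p = 0.00044), where 22.2% of all genes were called higher and none of the other 3 was. At 10 days every library lay below every baseline library, with a log2 change of -1.62 (SE 0.44, adjusted p = 0.00985). At 32 days the libraries spread from below to within the baseline range. From 10 to 32 days 0 of the 4 genes were called, where 23.6% were in either direction, and for Il1b the test missed the threshold (log2 change 1.18, SE 0.437, adjusted p = 0.0602). Without rat 1 of 32 days, its lowest library, the Il1b difference was called (1.48, adjusted p = 0.0106), and without rat 4 of 32 days it was 0.75.

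Il6 had 0.429, 0.246, 0 and 0.167 CPM in SMIR skin at 0 day, 20.4, 20.7, 19.6 and 13.5 CPM at 6 hours, 15.4, 6.16, 4.81 and 11.7 CPM at 2 days, 0, 0, 0.102 and 0.183 CPM at 10 days, and 0.665, 0.234, 0 and 0.634 CPM at 32 days. The 6-hour and 2-day groups overlapped each other and lay well above all the others. The Il6 log2 change against 0 day was 6.53 at 6 hours (SE 0.803, adjusted p = 2.17e-06) and 5.64 at 2 days (SE 0.783, adjusted p = 1.63e-05), and 7.13 and 6.23 without rat 1 of 0 day. At 32 days Il6 was at a mean of 0.383 ± 0.322 CPM, against 0.0712 ± 0.0887 CPM at 10 days, a difference that was not called (log2 change 2.44, SE 1.01, adjusted p = 0.0792). It was called without rat 4 of 32 days, which was at 0 (2.84, adjusted p = 0.027), and ranged from 2.04 to 3.41 with 1 library left out.

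Socs3 had 3.96, 6.33, 4.25 and 9.66 CPM in SMIR skin at 0 day, 37.4, 44.1, 46.4 and 40.7 CPM at 6 hours, and 39.3, 27.8, 33.9 and 17.4 CPM at 2 days. At 10 days it ranged from 4.22 to 8.09 CPM and at 32 days from 2.94 to 4.95 CPM. The early groups lay above every later library and every baseline library. Against the baseline the Socs3 log2 change was 2.92 at 6 hours (SE 0.294, adjusted p = 2.47e-07) and 2.48 at 2 days (SE 0.29, adjusted p = 3.05e-06).

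Il10 in SMIR skin had 0.562, 1.23, 0.513 and 0.803 CPM at 0 day, 1.28, 0.556, 0.314 and 0.767 CPM at 6 hours, and 0.973, 0.587, 0.975 and 1.16 CPM at 2 days, and these 3 groups overlapped. It was at 0, 0.534, 0.0709 and 0.119 CPM at 32 days, where 3 of the 4 libraries lay below the baseline range. That difference from 0 day was not called (log2 change -1.99, SE 0.732, adjusted p = 0.136). It was called without rat 3 of 32 days, the library at 0.534 CPM (-3.45, adjusted p = 0.011), as was the change from 10 days (-2.70, adjusted p = 0.0191, against -1.24 and 0.234 with that library).

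From 2 to 10 days Il1b, Il6 and Socs3 fell in SMIR skin, 3 of 4 genes where 17.5% of all genes were called lower. Their log2 changes were -4.62 (SE 0.491, adjusted p = 2.89e-06), -7.18 (SE 0.899, adjusted p = 1.13e-05) and -2.41 (SE 0.289, adjusted p = 7.37e-06), and the Il6 value was -8.12 without rat 6 of 10 days. Il10 was not called (log2 change -1.18, SE 0.68, adjusted p = 0.193). With the gene-length trend in the fit, the 3 calls at 2 days against 0 day were lost (adjusted p = 0.258 for Il1b, 0.208 for Il6 and 0.117 for Socs3), while their log2 changes were 2.81, 5.70 and 2.51. The trend ran from -0.142 to -0.106 in the 2-day libraries and from 0.0543 to 0.106 in those of 0 day. With no overlap, that fit could hardly tell trend from time. The Il1b call at 10 days was also lost with a replicate block (adjusted p = 0.14).

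The change from 0 day was smaller in SMIR skin than in LPI skin for all 4 genes at 6 hours, where 20.1% of the 17584 genes tested were called lower for SMIR minus LPI. The difference of the log2 changes was -5.10 for Il1b (SE 0.718, adjusted p = 2.3e-06), -2.17 for Socs3 (SE 0.491, adjusted p = 0.000768) and -5.14 for Il10 (SE 1.08, adjusted p = 0.000299). The Il10 sizes here and at 2 days rest on the 6 counts of rat 3 of LPI at 0 day, without which that baseline is at 0 and both calls stayed (adjusted p = 1.29e-05 and 0.000196). For Il6 the rise was 87.9-fold in SMIR skin and at least 3602-fold in LPI skin (adjusted p = 0.00317). At 2 days the difference was called for Il1b (-2.81, SE 0.692, adjusted p = 0.00407), Socs3 (-1.67, SE 0.49, adjusted p = 0.0141) and Il10 (-4.41, SE 1.08, adjusted p = 0.00312), 3 of 4 where 10.3% of all genes were called lower, and not for Il6 (adjusted p = 0.0696). The Socs3 call at 2 days was lost without rat 4 of SMIR 0 day (-1.31, adjusted p = 0.056), and Il6 was called at 2 days without rat 5 of LPI 2 days (adjusted p = 0.0305) or rat 3 of SMIR 0 day (adjusted p = 0.047). At 10 days 0 of the 4 were called, where 13.9% were in either direction, although Il10 was without rat 3 of LPI 0 day (adjusted p = 0.0116).

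The models also differed at baseline. At 0 day Il1b was at 28.4 ± 2.72 CPM in SMIR skin and 9.17 ± 1.18 CPM in LPI skin, and Il10 at 0.777 ± 0.328 CPM in SMIR skin and 0.0606 ± 0.121 CPM in LPI skin (SD, n = 4 each), with no overlap for either gene. Both were called higher in SMIR, 2 of 4 where 26.6% of all genes were, with log2 differences of 1.20 for Il1b (SE 0.494, adjusted p = 0.0427) and 3.19 for Il10 (SE 0.854, adjusted p = 0.00206). The Il1b call was lost on leaving out any of the 8 libraries (adjusted p between 0.0545 and 0.0898), and the Il10 call was lost with the gene-length trend in the fit (adjusted p = 0.116). The Il10 size again rests on rat 3 of LPI, without which the LPI baseline is at 0 (adjusted p = 5.12e-05). At 6 hours the levels themselves were 39.5 ± 9.70 CPM of Il1b in SMIR skin and 402 ± 275 CPM in LPI skin, and 42.2 ± 3.93 CPM of Socs3 in SMIR skin and 91.3 ± 18.8 CPM in LPI skin, without overlap for either. Il6 at 6 hours was at 18.5 ± 3.41 CPM in SMIR skin and 112 ± 20.4 CPM in LPI skin, also without overlap. Model, incision site and any difference in handling or sequencing between the models cannot be told apart.

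**Figure D2:**
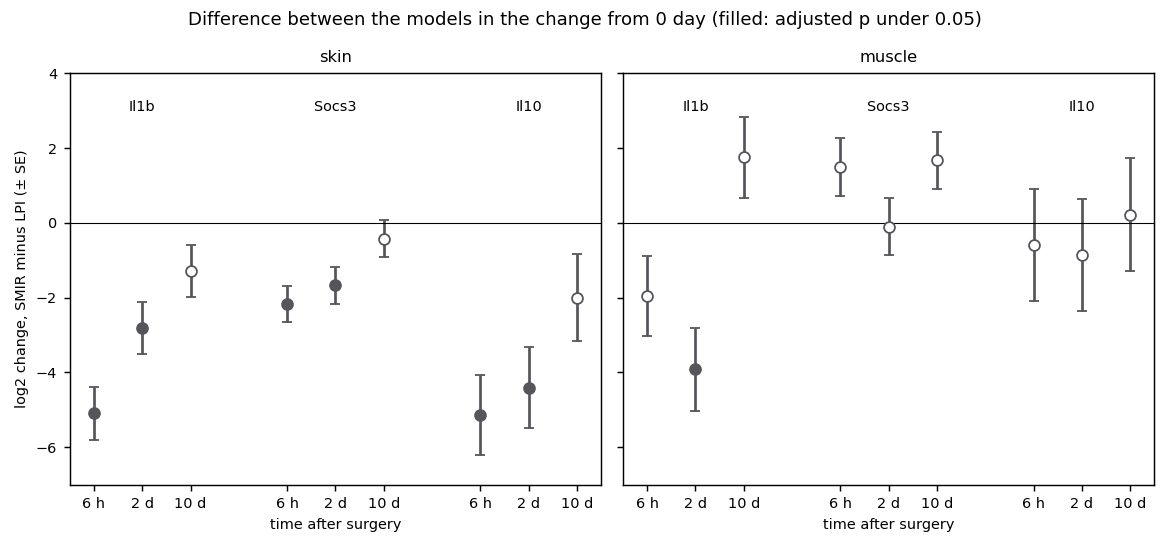
Difference of the log2 change from 0 day, SMIR minus LPI, for Il1b, Socs3 and Il10 in skin and muscle at 6 hours, 2 days and 10 days, with the SE of the fit as bars; filled points had an adjusted p under 0.05. Il6 is left out because a 0 day group was at 0 counts. In skin the 6-hour and 2-day points lay below 0 for all 3 genes, and in muscle only Il1b at 2 days (-3.92) was called.

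In muscle after LPI, Il1b and Il6 reached their highest levels of the whole series at 6 hours, and Socs3 rose with them. At 6 hours Il1b, Il6 and Socs3 were called higher, 3 of 4 where 20.6% of the 16246 genes tested were, and at 2 days the same 3, where 21.8% were. At 10 days 0 of the 4 were called, where 0.32% of all genes were called in either direction.

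Il1b had 2.94, 0.918, 1.38 and 0.673 CPM in LPI muscle at 0 day, 554, 757, 743 and 1365 CPM at 6 hours, 658, 334, 21.6 and 410 CPM at 2 days, and 2.85, 3.23, 4.12 and 1.75 CPM at 10 days. The 6-hour libraries lay far above the baseline, and at 2 days 3 libraries were still high while rat 4 was much lower. The mean at 6 hours was 855 ± 352 CPM, against 1.48 ± 1.02 CPM at 0 day (SD, n = 4 each), a log2 change of 9.68 (SE 0.995, adjusted p = 1.51e-05). At 2 days the log2 change was 7.85 (SE 0.925, adjusted p = 0.000227).

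Il6 had 0.186, 0.734, 0.538 and 0.210 CPM in LPI muscle at 0 day, 361, 319, 425 and 759 CPM at 6 hours, 24.2, 12.5, 73.5 and 19.4 CPM at 2 days, and 1.02, 0.165, 0.310 and 0.692 CPM at 10 days. No library of 6 hours or 2 days overlapped the baseline, and at 2 days rat 4, the lowest for Il1b, was the highest for Il6. The log2 change was 10.62 at 6 hours (SE 0.849, adjusted p = 2.16e-06) and 6.20 at 2 days (SE 0.72, adjusted p = 0.000218), and the 2-day change was 5.42 without rat 4. Between 6 hours and 2 days Il6 fell by 4.42 on the log2 scale (SE 0.638, adjusted p = 0.000293). The value was -5.20 without rat 4 of 2 days.

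Socs3 had 7.84, 5.96, 6.26 and 6.77 CPM in LPI muscle at 0 day, 133, 136, 141 and 187 CPM at 6 hours, 148, 31.2, 30.5 and 65.8 CPM at 2 days, and 17.5, 10.3, 4.43 and 10.9 CPM at 10 days. The 6-hour libraries lay close together and the 2-day libraries spread widely, with rat 1 highest. Against the baseline the Socs3 log2 change was 4.98 at 6 hours (SE 0.544, adjusted p = 2.07e-05) and 3.30 at 2 days (SE 0.504, adjusted p = 0.000537), and 2.54 at 2 days without rat 1. Socs3 was also lower at 2 days than at 6 hours (log2 change -1.68, SE 0.47, adjusted p = 0.0152; -2.44 without rat 1 of 2 days). With Il6 this made 2 of 4 genes, where 17.5% of all genes were called lower, and Il1b did not pass (log2 change -1.82, SE 0.702, adjusted p = 0.0617). The Il1b difference was called without rat 1 of 2 days (-2.35, adjusted p = 0.0372), without rat 4 of 2 days (-1.43, adjusted p = 0.0397) and with same-numbered libraries paired (-2.79, adjusted p = 0.029), where that of Socs3 was -2.28. On library totals alone, with no TMM factor, the Socs3 call was lost (-1.11, adjusted p = 0.0646), and likewise in a fit of these groups alone (adjusted p = 0.0531).

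Il10 had 2.71, 0.229, 0.422 and 0.336 CPM in LPI muscle at 0 day, 0.971, 1.88, 2.33 and 3.04 CPM at 6 hours, and 7.75, 2.02, 1.18 and 2.05 CPM at 2 days. The baseline library with 2.71 CPM was rat 1, in which muscle-enriched genes took 0.175% of counts, and it overlapped the later groups. No change was called (log2 change 1.68, SE 1.05, adjusted p = 0.231 at 6 hours and 1.78, SE 1.05, adjusted p = 0.181 at 2 days). Without that library the log2 change was 3.10 at 6 hours (adjusted p = 0.0555) and 3.21 at 2 days, which was called (adjusted p = 0.0427).

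At 2 days the LPI muscle libraries differed widely in their share of skin-enriched counts. In rat 4, where skin-enriched genes took 0.238% of counts, Il1b was at 21.6 CPM, and in the other 3 libraries, at 4.26% to 6.03%, it was at 334 CPM or more. Among those 3 libraries Il1b was at 658 CPM with a share of 4.26%, 410 CPM with 5.87% and 334 CPM with 6.03%. Socs3 was at 30.5 CPM in rat 4 and 31.2 CPM in the library at 6.03%, and Il6 was highest in rat 4. In LPI skin at the same time Il1b averaged 463 CPM, and skin-enriched genes took 23.8% to 26.9% of counts. Without the 5 LPI muscle libraries over 1%, which leaves rat 4 alone at 2 days and assumes that it varies like the other groups, the log2 changes at 2 days against 0 day were 3.79 for Il1b (adjusted p = 0.0151), 7.40 for Il6 (adjusted p = 0.00157) and 2.11 for Socs3 (adjusted p = 0.0183). The 6-hour changes without them were 9.57, 10.63 and 4.88. In that fit Il1b was also called lower at 2 days than at 6 hours (log2 change -5.78, adjusted p = 0.0143). Rat 4 was itself low in muscle-enriched counts at 2 days (0.217%), and its group ran from 0.120% to 0.685%. That share was 2.68% to 12.2% at 6 hours, 1.08% to 9.34% at 10 days and 0.175% to 16.2% at 0 day. Comparisons with LPI muscle at 2 days, with or without the libraries over 1%, thus also set unlike shares of muscle RNA side by side. The parts of skin RNA and of tissue makeup in the 2-day levels were not tested.

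**Figure D3:**
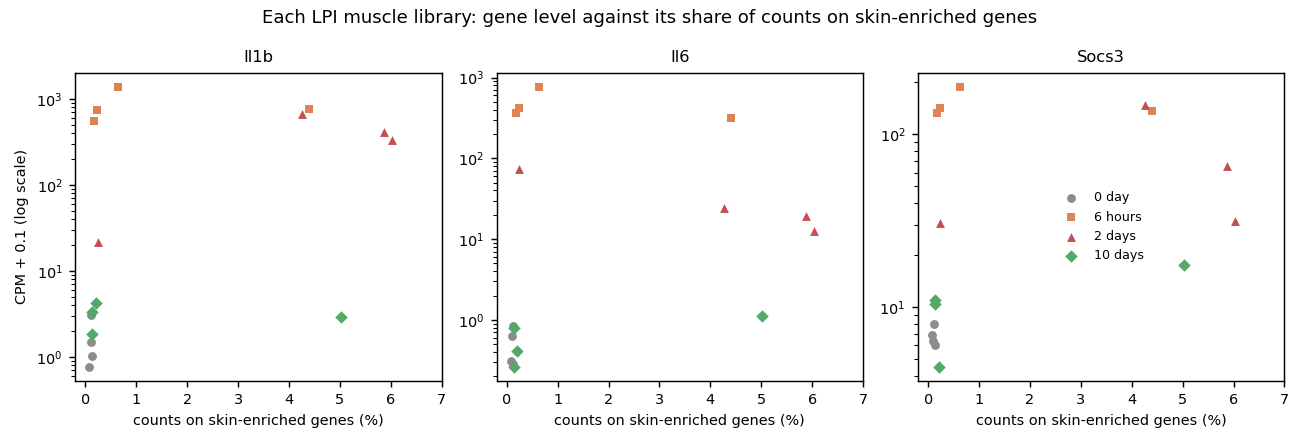
CPM + 0.1 (log scale) of Il1b, Il6 and Socs3 in each of the 16 LPI muscle libraries against the percentage of its counts on skin-enriched genes, by time. At 2 days (red triangles) the library at 0.238% had the lowest Il1b (21.6 CPM) and the highest Il6 (73.5 CPM) of its group.

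From 2 to 10 days Il1b, Il6 and Socs3 fell in LPI muscle, 3 of 4 where 14.9% of all genes were called lower, with log2 changes of -6.90 (SE 0.885, adjusted p = 0.00067), -5.93 (SE 0.704, adjusted p = 0.000585) and -2.71 (SE 0.49, adjusted p = 0.0025). The Socs3 value was -1.94 without rat 1 of 2 days and the Il6 value -5.14 without rat 4 of 2 days. Without the 5 libraries over 1% the Il6 call stayed (-7.56, adjusted p = 0.00467), and those of Il1b (-2.82, adjusted p = 0.0694) and Socs3 (-1.82, adjusted p = 0.0553) were lost. With the rat number as a block all 3 calls were lost (-5.82 for Il1b, -6.14 for Il6 and -1.80 for Socs3, adjusted p = 0.0625, 0.0625 and 0.111), although the 2 numbers shared by these times did not pair their libraries.

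In SMIR muscle Il6 averaged 233 ± 96.5 CPM at 6 hours (SD, n = 4) and had no count in any library at 0 day, and Il1b and Socs3 stayed above baseline up to 10 days. Il1b, Il6 and Socs3 rose at 6 hours, 3 of 4 where 17.7% of the 16506 genes tested were called higher, and the same 3 at 2 days, where 25.1% were. At 10 days Il1b and Socs3 were still called higher, 2 of 4 where 22.2% were, and at 32 days 0 of the 4 were called, where 0.0848% were in either direction. Muscle-enriched genes took 4.80% to 14.8% of the counts at 2 days and 5.21% to 19.4% at 10 days, against 27.3% to 30.5% at 0 day.

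Il1b had 0.349, 1.03, 0.260 and 0.936 CPM in SMIR muscle at 0 day, 119, 240, 54.5 and 160 CPM at 6 hours, 47.1, 14.8, 7.80 and 16.1 CPM at 2 days, 17.8, 6.22, 2.40 and 5.61 CPM at 10 days, and 0.139, 1.54, 0 and 0.222 CPM at 32 days. Every library up to 10 days after surgery lay above the baseline, and those at 32 days spread across it. The log2 change from 0 day was 7.69 at 6 hours (SE 0.949, adjusted p = 1.36e-05), 4.06 at 2 days (SE 0.821, adjusted p = 0.000883) and 2.78 at 10 days (SE 0.79, adjusted p = 0.0103). It was 3.37 at 2 days without rat 1 of that time, and 2.18 at 10 days without rat 3 of that time. The 10-day call was lost with the gene-length trend in the fit (2.21, adjusted p = 0.0964). That trend did not overlap between the 10-day and the 0 day libraries, so the fit could hardly tell it from time.

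Il6 was at 0 counts in all 4 SMIR muscle libraries at 0 day, which allows up to 0.0193 CPM over the group. It had 289, 325, 108 and 209 CPM at 6 hours, 7.77, 1.87, 0.630 and 10.5 CPM at 2 days, 1.82, 0, 0.180 and 0 CPM at 10 days, and 0, 0.377, 0 and 0.0740 CPM at 32 days. The 6-hour libraries lay above all others, and from 10 days the libraries included zeros again. Il6 was at least 12050-fold higher than at 0 day at 6 hours (adjusted p = 4.56e-05) and at least 269-fold higher at 2 days (adjusted p = 0.00227). At 10 days the difference was not called by edgeR (adjusted p = 0.0664) and was called by DESeq2 (adjusted p = 0.00598). It rests on rat 3: the adjusted p was 0.364 without that library, and 0.0412 and 0.0493 without rat 4 or rat 6, which were at 0.

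Socs3 had 0.537, 0.237, 1.82 and 1.51 CPM in SMIR muscle at 0 day, 83.5, 132, 66.4 and 109 CPM at 6 hours, 41.9, 14.3, 7.88 and 19.0 CPM at 2 days, 17.3, 4.95, 6.51 and 9.64 CPM at 10 days, and 3.76, 2.91, 0.933 and 1.23 CPM at 32 days. The groups of 6 hours, 2 days and 10 days lay above every baseline library, while 2 of the 32-day libraries lay within the baseline range. The log2 change was 6.47 at 6 hours (SE 0.695, adjusted p = 3.66e-06), 3.34 at 2 days (SE 0.611, adjusted p = 0.000447) and 2.36 at 10 days (SE 0.593, adjusted p = 0.00533). On library totals alone, with no TMM factor, the log2 changes at 2 and 10 days were 4.33 and 3.22 for Socs3, and 5.05 and 3.63 for Il1b.

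Il10 had 1.86, 1.26, 1.57 and 1.41 CPM in SMIR muscle at 2 days, against 0.134, 0.789, 0.208 and 0.384 CPM at 0 day, 2 groups that did not overlap. The change was not called (log2 change 1.04, SE 1.07, adjusted p = 0.44). At the other times its libraries overlapped the baseline.

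Il1b, Il6 and Socs3 were all lower at 2 days than at 6 hours in SMIR muscle, 3 of 4 where 18.5% of all genes were called lower. The log2 changes were -3.63 (SE 0.771, adjusted p = 0.00169), -6.50 (SE 1.19, adjusted p = 0.000905) and -3.14 (SE 0.586, adjusted p = 0.000662), with -4.32 for Il1b without rat 1 of 2 days. From 2 to 10 days 0 of the 4 were called, where 6.48% were in either direction, although Il6 was called lower without rat 3 of 10 days (-6.04, adjusted p = 0.0141, against -3.25 and 0.0931 with it). From 10 to 32 days Il1b alone fell (log2 change -3.79, SE 0.841, adjusted p = 0.00445), where 12.8% of all genes were called lower, and Socs3 missed the threshold (log2 change -1.51, SE 0.569, adjusted p = 0.0566). It was called without rat 4 of 10 days (-1.67, adjusted p = 0.047) or rat 1 of 32 days (-2.10, adjusted p = 0.0245). The Il1b value was -5.18 without rat 3 of 32 days, a library in which muscle-enriched genes took 9.96% of counts and at least 27.7% in the other 3, and -3.19 without rat 3 of 10 days.

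At 2 days in SMIR muscle the 2 libraries with the fewest counts on muscle-enriched genes, rats 1 and 6 at 5.50% and 4.80%, had 47.1 and 16.1 CPM of Il1b, 7.77 and 10.5 CPM of Il6, and 41.9 and 19.0 CPM of Socs3. Rats 3 and 4, at 14.8% and 12.65%, had 14.8 and 7.80 CPM of Il1b, 1.87 and 0.630 CPM of Il6, and 14.3 and 7.88 CPM of Socs3, below rats 1 and 6 for all 3 genes. At 10 days the 2 libraries with the fewest counts on muscle-enriched genes, rats 3 and 6 at 5.21% and 5.42%, had 17.8 and 5.61 CPM of Il1b and 17.3 and 9.64 CPM of Socs3. The other 2 libraries, rats 4 and 5 at 19.4% and 17.9%, had 6.22 and 2.40 CPM of Il1b and 4.95 and 6.51 CPM of Socs3. The part of tissue makeup in these levels was not tested.

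In muscle, SMIR and LPI were called different for fewer of the 4 genes than in skin at 6 hours and 2 days; whether the difference between the models itself differed between the tissues was not tested. At 6 hours 0 of the 4 genes were called for SMIR minus LPI, where 5.02% of the 17271 genes tested were called in either direction; the difference of the log2 changes was -1.97 for Il1b (SE 1.07, adjusted p = 0.295) and 1.49 for Socs3 (SE 0.765, adjusted p = 0.263). At 2 days Il1b alone was called lower (-3.92, SE 1.10, adjusted p = 0.0194), where 7.71% of all genes were. Without the 5 LPI libraries over 1% skin-enriched counts the difference was 0.31 and the call was lost (adjusted p = 0.959). It was also lost on library totals alone (-2.85, adjusted p = 0.0587) and without any 1 of 5 libraries: rat 2 of LPI 0 day, rat 1 of LPI 2 days, and rats 3, 4 and 6 of SMIR 2 days (adjusted p between 0.0509 and 0.0659). At 10 days 0 of the 4 were called, where 14.7% were, with differences of 1.75 for Il1b (SE 1.08, adjusted p = 0.272) and 1.67 for Socs3 (SE 0.77, adjusted p = 0.135).

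At 0 day Socs3 was at 1.03 ± 0.759 CPM in SMIR muscle and 6.71 ± 0.824 CPM in LPI muscle (SD, n = 4 each), with no overlap. It was called lower in SMIR (log2 difference -1.87, SE 0.566, adjusted p = 0.00826; -2.70 on library totals alone), and so was Il6, which had no count in SMIR muscle and 0.186 to 0.734 CPM in LPI muscle (adjusted p = 0.0226). That made 2 of 4 genes, where 23.5% of all genes were called lower. The 2 muscle sites also differed in their share of muscle-enriched counts, 27.3% to 30.5% in SMIR and 0.175% to 16.2% in LPI at 0 day.

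Within each model, the change of Il1b at 6 hours was larger in muscle than in skin. The main tests of muscle minus skin treated all libraries as independent, although skin and muscle were taken to come from the same rats. In LPI at 6 hours the change of Il1b was larger in muscle than in skin by 3.90 on the log2 scale (SE 0.925, adjusted p = 0.00916), 1 of 4 genes where 4.14% of the 17218 genes tested were called higher for muscle minus skin. In SMIR at 6 hours the difference was 7.18 for Il1b (SE 0.944, adjusted p = 1.36e-06) and 3.64 for Socs3 (SE 0.663, adjusted p = 0.000104). For Il6 the rise was at least 12050-fold in SMIR muscle and 87.9-fold in SMIR skin (adjusted p = 0.00281), which made 3 of 4 genes where 19.2% of the 18071 tested were called higher. The Il6 call held with each single library left out. In LPI, Il10 was called lower in muscle at 6 hours without rat 3 of skin at 0 day (adjusted p = 0.0319). At 2 days 0 of the 4 were called in either model, where 40.9% of genes were in SMIR and 16.6% in LPI, and at 10 days 0 of the 4 were called in LPI, where 0.732% were. The LPI differences at 2 days were called for Il1b (2.49, adjusted p = 0.017, against 2.15 and 0.101) and Il6 (adjusted p = 0.0195) without rat 4 of muscle, for Il6 without rat 5 of skin at 2 days (adjusted p = 0.0346) and for Il10 without rat 3 of skin at 0 day (adjusted p = 0.0348).

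At 10 days in SMIR the Il1b change was again larger in muscle than in skin (4.58, SE 0.909, adjusted p = 0.000589; 3.96 without rat 3 of muscle at 10 days), and so was that of Socs3 (2.47, SE 0.66, adjusted p = 0.00597). With Il6 (adjusted p = 0.0333) this was 3 of 4 genes, where 19.6% of all genes were called higher. At that time Il1b was above its baseline in muscle and below its baseline in skin. The Il6 call was lost when skin and muscle of 1 rat were paired (adjusted p = 0.0604) and without rat 3 of muscle at 10 days, which held 1.82 CPM where 2 of its group had 0 (adjusted p = 0.221). It was also lost without rat 1, 3 or 4 of muscle at 0 day, rat 1 of skin at 0 day, or rat 3 or 4 of skin at 10 days (adjusted p between 0.0509 and 0.0771). The median over all genes of the SMIR muscle minus skin difference was 0.18 at 6 hours, 0.32 at 2 days and 0.31 at 10 days, so these differences are to be read relative to that shift.

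**Figure D4:**
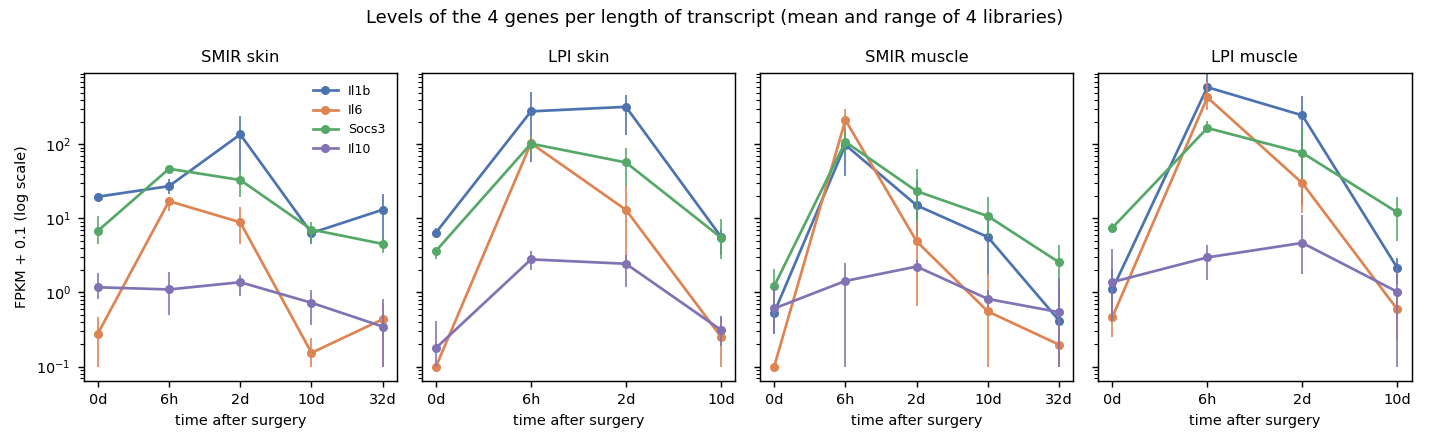
FPKM + 0.1 on a log scale of Il1b, Il6, Socs3 and Il10 by time after surgery in SMIR skin, LPI skin, SMIR muscle and LPI muscle; points are means and vertical lines the range of 4 libraries. In SMIR muscle at 6 hours Il6 lay above Il1b (212 against 98.0 FPKM), and in the other panels Il1b lay above Il6 at 6 hours.

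Per length of transcript, the balance of the 2 pro-inflammatory cytokines differed between sites at 6 hours. In SMIR muscle Il6 was at a mean of 212 FPKM and Il1b at 98.0 FPKM, and the ratio of Il6 to Il1b was 3.26, 1.81, 2.64 and 1.74 in the 4 libraries. In LPI muscle Il6 was at 429 FPKM and Il1b at 590 FPKM, with ratios of 0.870, 0.563, 0.764 and 0.742. The 2 sets of ratios did not overlap. In SMIR skin the ratios were 0.580, 0.566, 0.836 and 0.580, and in LPI skin 0.382, 0.328, 0.253 and 1.65, which overlapped because of rat 5 of LPI.

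At 2 days Il6 was below Il1b in every skin and muscle library but 1. The ratio of Il6 to Il1b in FPKM was 0.220, 0.168, 0.105 and 0.871 in SMIR muscle, and 0.0492, 0.0498, 4.54 and 0.0630 in LPI muscle, where the value above 1 was that of rat 4, the library with few skin-enriched counts. In skin it was 0.0585, 0.0415, 0.0365 and 0.246 in SMIR and 0.0610, 0.0371, 0.0251 and 0.0188 in LPI. These ratios were chosen after the levels were seen and are a description with no test.

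Socs3 was above Il6 per length in SMIR skin at 6 hours (46.7 against 17.0 FPKM) and nearly level with it in LPI skin (102 against 104 FPKM), and below it in SMIR muscle (108 against 212 FPKM) and LPI muscle (166 against 429 FPKM). Il10 stayed under 5 FPKM as a group mean throughout, with its highest mean of 4.57 FPKM in LPI muscle at 2 days.

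In DRG none of the 4 genes was called at any time in either model. In SMIR DRG, of 17134 genes tested, 0% were called at any time or between successive times. In LPI DRG, of 16400 tested, 0% were called at 6 hours and between successive times, 19.3% at 2 days and 14.2% at 10 days. For SMIR minus LPI, 0% of all genes were called at 6 hours, 5.57% at 2 days and 0.0115% at 10 days. For SMIR against LPI at 0 day 19.1% were. The SMIR DRG fit and the fit over both models held rat 4 of SMIR 0 day, the library rich in muscle-enriched counts. It entered the SMIR baseline and the estimate of the spread shared by all groups of a fit. The shares over all genes without it are not given here. Over all DRG comparisons, the number with an unadjusted p under 0.05 was 0 of 16 for Il1b, 2 of 11 for Il6 and 3 of 16 for Socs3, and DESeq2 called none of them.

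Il1b in SMIR DRG had 1.49, 1.54, 0.894 and 3.96 CPM at 0 day, 16.9, 1.69, 2.71 and 2.94 CPM at 6 hours, 5.22, 3.08, 0.698 and 4.44 CPM at 2 days, 2.79, 1.13, 15.3 and 2.17 CPM at 10 days, and 4.19, 1.78, 0.957 and 1.84 CPM at 32 days. The groups overlapped, and 1 library stood far above the others at 6 hours (rat 1) and at 10 days (rat 5). DRG-enriched genes took 14.8% of counts in rat 1 at 6 hours, against 17.6% to 20.2% in the rest of its group. They took 14.7% in rat 5 at 10 days, against 18.6% to 19.45% in the rest of its group. The part of tissue makeup in these levels was not tested. The baseline library at 3.96 CPM was rat 4, the one rich in muscle-enriched counts. Against the baseline the Il1b log2 change was 1.49 at 6 hours (SE 0.935, adjusted p = 0.717) and 1.35 at 10 days (SE 0.933, adjusted p = 0.753). Without rat 4 of 0 day these were 2.35 (adjusted p = 0.545) and 2.20 (adjusted p = 0.911), without rat 1 of 6 hours the first was 0.08, and without rat 5 of 10 days the second was -0.24. In LPI DRG Il1b ranged from 0.549 to 3.63 CPM over all 16 libraries.

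Il6 was near the limit of detection in DRG. It was at 0 in 9 of the 20 SMIR libraries and 10 of the 16 LPI libraries, and its highest values were 1.21 CPM in SMIR at 2 days and 0.718 CPM in LPI at 2 days. At SMIR 0 day it was seen only in rat 4 (0.499 CPM), so its changes against 0 day there rest on that library: at 6 hours the log2 change was -2.58 with it (adjusted p = 0.733) and of the other sign without it. It was too low to be tested within the LPI DRG tables.

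Socs3 in DRG lay between 1.13 and 3.73 CPM in SMIR and between 0.383 and 4.38 CPM in LPI, with a median of 1.89 CPM in SMIR and 2.29 CPM in LPI. In LPI DRG it had 2.83, 2.62, 1.05 and 1.96 CPM at 0 day, 0.848, 0.729, 1.60 and 0.383 CPM at 6 hours, 3.92, 1.14, 1.57 and 4.31 CPM at 2 days, and 2.83, 4.38, 2.75 and 2.98 CPM at 10 days. At 6 hours 3 libraries lay below every baseline library and 1 within the range. The Socs3 change at 6 hours was -1.29 on the log2 scale (SE 0.464, adjusted p = 0.548), and that from 6 hours to 2 days 1.52 (SE 0.463, adjusted p = 0.138); neither was called, although the second was without rat 4 of 6 hours (1.93, adjusted p = 0.0202).

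Il10 had 3 counts in 1 SMIR DRG library (rat 3 of 0 day, 0.0994 CPM) and 0 in the other 19, and 0 in all 16 LPI DRG libraries, which allows up to 0.00774 CPM over those 16. It was not tested there.

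**Figure D5:**
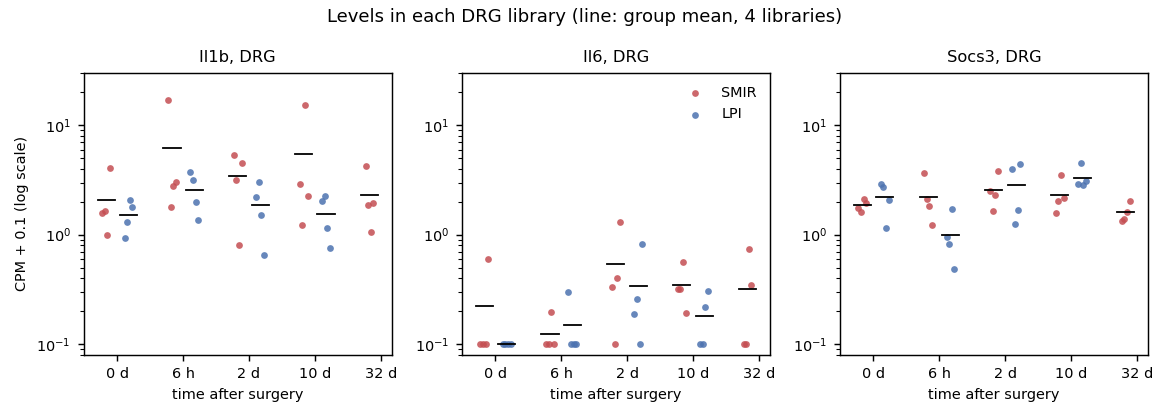
CPM + 0.1 on a log scale of Il1b, Il6 and Socs3 in each DRG library by time after surgery, SMIR in red and LPI in blue, with a line at the mean of 4 libraries. For Il1b the groups overlapped, and single SMIR libraries at 6 hours (16.9 CPM) and 10 days (15.3 CPM) stood apart. For Socs3, LPI at 10 days (2.75 CPM or more) lay above LPI at 6 hours (up to 1.60 CPM), times not tested against each other. It also lay above SMIR at 0 day (up to 2.02 CPM) and at 32 days (up to 1.95 CPM).

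Ranked by group mean over the 9 groups of a tissue, Il1b in skin stood highest in LPI at 2 days, then LPI at 6 hours and SMIR at 2 days, whose ranges overlapped in turn, and SMIR at 6 hours lay below them without overlap. In muscle Il1b stood highest in LPI at 6 hours, followed by LPI at 2 days and SMIR at 6 hours, each overlapping the next. SMIR at 2 days (up to 47.1 CPM) lay below SMIR at 6 hours without overlap, but overlapped LPI at 2 days (from 21.6 CPM). For Il6 in muscle, LPI and SMIR at 6 hours came first and overlapped, and each was separated from LPI at 2 days. Below these, LPI at 2 days and SMIR at 2 days did not overlap. In skin, Il6 in LPI at 6 hours stood above every other group without overlap, and SMIR at 6 hours overlapped LPI at 2 days.

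Socs3 in muscle stood highest in LPI at 6 hours, with no overlap with SMIR at 6 hours (up to 132 CPM in SMIR, and 133 CPM or more in LPI). Its lowest muscle groups were SMIR at 32 days and SMIR at 0 day, which overlapped. For Il10 every pair of neighbours in the order overlapped in skin and in muscle. In DRG nearly all libraries were at 0 for Il10, so overlap there carries no information.

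Over the 27 group means of log2(CPM + 0.1), Pearson's r was 0.946 between Socs3 and Il6, 0.898 between Socs3 and Il1b, 0.873 between Il1b and Il6, and 0.854 between Socs3 and Il10. It was 0.729 between Il10 and Il1b and 0.754 between Il10 and Il6. The points share libraries, depth and tissue, and these values are a description with no test. Among 17595 genes with a group mean of at least 1 CPM in at least 1 group, the gene most like Il6 (r = 0.958) and also the one most like Socs3 (r = 0.964) was ENSRNOG00000002802, and it stayed first for both with 1 CPM as pseudocount. For Il1b it was ENSRNOG00000011474 (r = 0.938), which another gene displaced with 1 CPM.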

How the data were processed

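Total RNA of skin, muscle and DRG was sequenced from strand-specific TruSeq libraries on an Illumina NovaSeq, per the labels' protocols. The submitters' processing notes name FastQC 0.11.2, STAR and StringTie, and the builds rn6 and hg38; whether counting used strand is not given in the sources used here. Raw counts per Ensembl gene in 6 tables and FPKM values in 6 more were deposited by the authors, and both were used as deposited. Their columns carry the model, time, tissue and a rat number; 1 time code was assigned to 6 hours because the other codes name the remaining times. The labels number single animals, while the extraction protocol speaks of pooled RNA. The p-values rest on the spread between libraries within groups, which may therefore be partly technical. No 2 libraries of a group agreed within sampling noise (lowest chi-square per degree of freedom 11.3).

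The members and lists were chosen with earlier results of these data known, and the symbols come with the selection: 0 identifiers matched the reference table of gene names. Counts were fitted with edgeR 4.0.16 in R 4.3.3 (TMM factors, filterByExpr, robust quasi-likelihood fit, two-sided tests, Benjamini-Hochberg adjustment over all genes of a comparison), 11 fits in all: 1 per model and tissue, 1 per tissue over both models, and 1 per model over skin and muscle. They gave 54 comparisons and 195 tests of a member, of which 65 were called. DESeq2 1.42.0, RLE scaling, library totals, no filter, a gene-length covariate, a replicate block, fits of the compared groups alone and leaving out each library were the alternatives; leaving out 5 LPI muscle libraries over 1% skin-enriched counts was added after seeing the data. The fitting code was tested on simulated data. A gene at 0 in a whole group was given the limit of 3 counts over the group. Tissue-enriched genes had at least 5 CPM and 8 times the level of the other tissues in the group medians at 0 day, with 0.1 CPM added. The named genes are the 4 members, and the single gene most like a member by identifier, at most 2 identifiers in all. Skin and muscle libraries with the same model, time and number were taken as 1 rat, following the series' text on 36 rats and 108 samples; their deviations from the group means correlated with a median r of 0.12 in SMIR (over 0.1 in 11 of 20 pairs) and 0.087 in LPI (8 of 16). The labels do not say that a number is shared across times. In 2 of the 33 pairs of times that shared at least 3 numbers, every same-numbered pair correlated over 0.1: LPI muscle at 6 hours and 2 days (0.306 to 0.550) and SMIR muscle at 10 and 32 days (0.287 to 0.455).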

Additional observations from a re-analysis of the deposited data

Results flagged for a closer look

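Single libraries stood apart from the other 3 of their group in 14 of the 108 combinations of gene and group by Dixon's test at the 95% level. Chance alone flags about 1 in 20 groups of normally distributed values, a rate that does not hold here. The test was run on CPM without a log, which need not be normally distributed. In 11 combinations all 4 libraries were at 0, and in 5 of the 14 the other 3 libraries were at 0, which fixes the ratio. For Il1b these were SMIR muscle at 32 days (rat 3, 1.54 CPM), SMIR DRG at 6 hours (rat 1, 16.9 CPM) and SMIR DRG at 10 days (rat 5, 15.3 CPM), each the highest of its group. For Il6 they were SMIR skin at 6 hours (rat 4, the lowest, 13.5 CPM), SMIR muscle at 10 days (rat 3, 1.82 CPM), SMIR DRG at 0 day (rat 4, 0.499 CPM), SMIR DRG at 6 hours (rat 3, 0.0979 CPM) and LPI DRG at 6 hours (rat 2, 0.202 CPM). For Il10 they were LPI skin at 0 day (rat 3, 0.242 CPM), LPI muscle at 0 day (rat 1, 2.71 CPM), LPI muscle at 2 days (rat 1, 7.75 CPM) and SMIR DRG at 0 day (rat 3, 0.0994 CPM). For Socs3 they were LPI muscle at 6 hours (rat 5, 187 CPM) and LPI DRG at 10 days (rat 5, 4.38 CPM). Muscle-enriched genes took 2.00% of the counts in SMIR DRG at 6 hours, rat 1, and 0.123% to 0.310% in the other 3 libraries of that group.

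The change from 0 day differed between the models or tissues in 15 tests of the difference itself. For SMIR minus LPI these were, on the log2 scale, Il1b (-5.10), Il10 (-5.14) and Socs3 (-2.17) in skin at 6 hours, Il1b (-2.81), Il10 (-4.41) and Socs3 (-1.67) in skin at 2 days, and Il1b in muscle at 2 days (-3.92); Il6 in skin at 6 hours was called with an adjusted p of 0.00317 and no size, since its LPI baseline was at 0. For muscle minus skin they were Il1b in LPI at 6 hours (3.90), Il1b (7.18) and Socs3 (3.64) in SMIR at 6 hours, and Il1b (4.58) and Socs3 (2.47) in SMIR at 10 days. Il6 was called in SMIR at 6 hours (adjusted p = 0.00281) and at 10 days (adjusted p = 0.0333). The Il1b difference between the models in muscle at 2 days lost its call without some single libraries. It also depended on the LPI muscle libraries rich in skin-enriched counts. The Il10 sizes rest on the few counts of a single LPI skin library at 0 day, and the Il6 call at 10 days was lost without some single libraries.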

How the results depend on the processing

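All 65 calls kept their direction and stayed called under RLE scaling and DESeq2. No call changed direction under any alternative listed, except Il1b in SMIR minus LPI muscle at 2 days, which was 0.31 without the 5 LPI muscle libraries over 1% skin-enriched counts (alternative chosen after seeing the data). Without those libraries the number of genes called was 1 in LPI muscle at 10 against 2 days and 0 for SMIR minus LPI muscle at 2 days, and the uncalled Il1b difference between LPI muscle and skin at 2 days was -2.02. The gene-length covariate gave 0 called genes in SMIR skin at 2 days, 1 in SMIR muscle at 10 days, 1 in SMIR muscle at 10 against 2 days and 2 in LPI skin at 2 days against 6 hours, and turned the uncalled Il1b change in SMIR DRG at 2 days against 6 hours to 0.36. In SMIR skin at 2 days and SMIR muscle at 10 days its values did not overlap those of 0 day, so it could hardly be told from time there. Library totals without TMM gave 1 in LPI muscle at 2 days against 6 hours, 2 in SMIR muscle at 32 against 10 days, 0 and 1 for SMIR minus LPI muscle at 2 and 10 days, 4 for SMIR against LPI skin at 0 day and 2 for SMIR muscle minus skin at 2 days. With no filter, SMIR against LPI skin at 0 day gave 1. Fits of the compared groups alone gave 1 in LPI muscle at 2 days against 6 hours, 2 in LPI skin at 2 days against 6 hours, 1 in SMIR muscle at 10 against 2 days, 1 for SMIR minus LPI muscle at 6 hours, 1 for SMIR minus LPI skin at 10 days, 1 for SMIR against LPI muscle at 0 day and 2 for LPI muscle minus skin at 6 hours. DESeq2 called 1 gene in LPI skin at 10 days, 2 in LPI skin at 2 days against 6 hours, 2 in SMIR muscle at 32 against 10 days, 1 in SMIR skin at 32 days and 2 there against 10 days, 1 each for SMIR minus LPI in muscle at 6 hours and 10 days and in skin at 10 days, and 1 for LPI muscle minus skin at 2 days. The cause of these shifts was not tested.

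With a replicate block on the rat number, 0 genes were called in LPI muscle at 10 against 2 days, 0 in SMIR skin at 10 days, 0 for SMIR minus LPI muscle at 2 days, 2 in LPI skin at 2 days against 6 hours and 1 for SMIR minus LPI skin at 10 days, and uncalled Il1b changes in DRG were -0.18 in SMIR at 10 days and -1.42 for SMIR minus LPI at 10 days. Over all times of a table the numbers did not pair libraries: the median correlation of same-numbered libraries lay between -0.092 and 0.066 over the 6 tables. The block on the rat changed no muscle minus skin call other than that of Il6 in SMIR at 10 days.

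Leaving out 1 library at a time, the number called ranged from 0 to 1 in LPI DRG at 2 days against 6 hours, in LPI skin at 10 days, in SMIR skin at 32 days, in SMIR skin at 32 against 10 days, in SMIR muscle at 10 against 2 days, and for SMIR minus LPI in muscle at 2 days and in skin at 10 days. It ranged from 1 to 2 in LPI skin at 2 days against 6 hours, SMIR muscle at 32 against 10 days and LPI muscle minus skin at 6 hours, from 0 to 2 for LPI muscle minus skin at 2 days, from 2 to 4 for SMIR minus LPI skin at 2 days, from 3 to 4 in LPI muscle at 2 days, and from 2 to 3 in LPI muscle at 2 days against 6 hours, SMIR muscle at 10 days and SMIR muscle minus skin at 10 days. It was 1 without any 1 of the 8 libraries for SMIR against LPI skin at 0 day. Among uncalled changes that turned sign, the log2 change ranged from -5.39 to 2.82 for Il6 in SMIR DRG at 6 hours, from -0.24 to 2.20 for Il1b in SMIR DRG at 10 days, from -1.26 to 0.48 for Il1b in SMIR DRG at 2 days against 6 hours, from -1.95 to 0.15 for Il1b in SMIR DRG at 32 against 10 days, from -0.16 to 2.28 for Il1b in SMIR minus LPI DRG at 10 days, and from -3.22 to 1.09 for Il6 in SMIR muscle at 32 against 10 days.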
